A study of Mus musculus with 19 samples.

Results

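The Cyp3a genes of the mouse were followed through the endometrium of 5 groups of females, with 5 members: Cyp3a59, Cyp3a25, Cyp3a11, Cyp3a13 and Cyp3a16. The members were matched by symbol to the gene identifiers of the deposited counts, and all 5 were found among the 49089 genes of the table. Cyp3a59 and Cyp3a25 were selected on their counts, for a large rise in mated libraries over estrus, so their difference from estrus is described here without a test. The annotation lists 11 genes with a Cyp3a symbol and the counts hold 10 of them, so the other 5 (Cyp3a57, Cyp3a41a, Cyp3a41b, Cyp3a44 and the pseudogene Cyp3a63-ps) are given beside the members.

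The endometrium, the inner lining of the uterus, was scraped from the muscle layer of C57Bl/6 wild-type females, and the RNA of 19 pooled samples was sequenced. The estrus group (CONT, 3 libraries, numbered 1, 2 and 4) came from virgin females near ovulation, and 4 groups of 4 libraries came from females aged 8 to 14 weeks on day 3.5 pc, the day before the embryo attaches, after housing with BALB/c males. The males of the INT group were intact. Those of the groups with the column prefixes SVX, SVX_VAS and VAS had surgery, but the prefix and the title of these libraries name different operations, so the groups are called by their prefix alone and no operation is attached to them. Estrous tissue was taken in the late evening and day 3.5 pc tissue at noon, so mating, hormonal stage and time of day cannot be told apart in any comparison with estrus. The number of females in a pool was not given in the sources used here, and p-values measure the spread between pools. The libraries held 12661266 to 31781270 counts. VAS 2 and VAS 3 stood apart from the rest, with 629 and 589 genes at 0 that have a median over 3 CPM elsewhere (counts scaled to a common library size), against at most 14 such genes in each of the other 17 libraries. Comparisons of the detected members in VAS with estrus and with INT are given with and without them.

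Cyp3a proteins are cytochrome P450 monooxygenases of the endoplasmic reticulum. They insert oxygen into steroids, bile acids and many drugs, with electrons passed on by the reductase Por and by cytochrome b5, and they are best known from liver and intestine. There the nuclear receptors PXR (Nr1i2) and CAR (Nr1i3), as partners of Rxra, switch the genes on in response to steroids and foreign compounds. In the uterus, steroid-metabolizing enzymes act at a time when estrogen and progesterone set the stage for implantation.

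Of the 10 Cyp3a genes in the counts, 9 lie in 1 cluster on chromosome 5 (GRCm38, chr5:145345279-146113287), a stretch of 768.0 kb. Cyp3a13 (ENSMUSG00000029727.7, chr5:137892932-137921619, minus strand) lies 7.42 Mb before it. Cyp3a57 opens the cluster on the plus strand, and Cyp3a59 (ENSMUSG00000061292.10, chr5:146079257-146113287, plus strand) closes it. Cyp3a25 (ENSMUSG00000029630.15, chr5:145977194-146009618, minus strand) is the neighbour of Cyp3a59 and points away from it, with 69.6 kb between their start sites. Cyp3a16 (ENSMUSG00000038656.5, chr5:145436309-145469723) and Cyp3a11 (ENSMUSG00000056035.8, chr5:145854426-145879964) lie between the ends, both on the minus strand. No exon of any of the 10 genes overlaps an exon of another gene on either strand in the GENCODE annotation.

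The first 250 bases before the start sites fell into 3 kinds of sequence among the detected genes, and 1 example or more of each kind is shown so that genes detected mainly after mating can be set beside Cyp3a13. Sequences and start sites are RefSeq's (GRCm38.p6), and each is written 5′ to 3′ on the strand of its gene. The promoters of Cyp3a59 (chr5:146079008-146079257, plus strand), Cyp3a25 (chr5:146009619-146009868, minus strand) and Cyp3a57 (chr5:145345019-145345268, plus strand) were near copies of each other. Capitals mark AGGTCA or its complement TGACCT (the half-site of PXR, CAR and related nuclear receptors), AGAACA (a half-site of steroid receptors such as the glucocorticoid and progesterone receptors) and AATAAATA (an AT-rich run close to the start).
Cyp3a59: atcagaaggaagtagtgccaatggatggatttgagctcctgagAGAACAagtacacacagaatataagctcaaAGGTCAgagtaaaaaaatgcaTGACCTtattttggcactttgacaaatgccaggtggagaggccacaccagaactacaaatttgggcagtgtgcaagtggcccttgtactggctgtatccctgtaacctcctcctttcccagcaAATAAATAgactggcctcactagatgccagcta
Cyp3a25: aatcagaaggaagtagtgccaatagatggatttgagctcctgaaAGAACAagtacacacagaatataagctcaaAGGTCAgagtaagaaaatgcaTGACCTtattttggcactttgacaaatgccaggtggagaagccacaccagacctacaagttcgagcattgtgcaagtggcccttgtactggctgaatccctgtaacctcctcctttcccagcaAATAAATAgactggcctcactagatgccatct
Cyp3a57: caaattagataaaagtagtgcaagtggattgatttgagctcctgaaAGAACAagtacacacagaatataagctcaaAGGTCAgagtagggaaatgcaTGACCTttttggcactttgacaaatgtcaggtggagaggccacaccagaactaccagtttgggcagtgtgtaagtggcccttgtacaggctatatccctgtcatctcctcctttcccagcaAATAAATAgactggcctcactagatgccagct

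Identity to the Cyp3a59 promoter was 94.8% for Cyp3a25 and 90.1% for Cyp3a57. AGGTCA, searched on both strands with the complement TGACCT counted as a match, occurred at 2 places in each of the 3. The 2 matches lie on opposite strands, beginning at positions -177 and -156 from the start site in Cyp3a59, -176 and -155 in Cyp3a25, and -174 and -153 in Cyp3a57. Of 27025 mouse promoters of the same length, 13.8% held this motif at least once and 1.32% held it 2 or more times. AGAACA or its complement TGTTCT occurred once in each of the 3, against 16.2% of all promoters. AATAAATA, searched on the gene's strand alone, was found in the 3 and in 1.34% of all promoters. No match overlapped a match to another motif.

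The promoters of Cyp3a16 (chr5:145469724-145469973, minus strand) and Cyp3a13 (chr5:137921620-137921869, minus strand) had 51.6% and 49.5% identity to that of Cyp3a59. They stand for the remaining kinds, and the capitals of Cyp3a16 mark CATATAA.
Cyp3a16: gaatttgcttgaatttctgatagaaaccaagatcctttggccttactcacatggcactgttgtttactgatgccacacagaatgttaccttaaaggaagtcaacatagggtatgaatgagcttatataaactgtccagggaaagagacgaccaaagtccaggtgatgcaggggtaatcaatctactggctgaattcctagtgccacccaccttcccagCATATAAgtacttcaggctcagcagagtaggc
Cyp3a13: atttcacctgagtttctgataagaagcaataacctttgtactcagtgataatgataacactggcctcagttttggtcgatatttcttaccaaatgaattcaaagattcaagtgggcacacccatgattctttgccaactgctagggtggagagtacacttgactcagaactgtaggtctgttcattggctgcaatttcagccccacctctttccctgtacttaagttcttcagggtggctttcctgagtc

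The Cyp3a16 promoter had 92.9% identity to that of Cyp3a44, 90.9% to that of Cyp3a41a and 91.3% to that of Cyp3a41b, and 76.2% to that of Cyp3a11. These 5 genes share CATATAA, searched on the gene's strand alone, which 1.22% of all promoters hold. AGGTCA occurred once in Cyp3a11 and Cyp3a44 and was not found in the windows of Cyp3a16, Cyp3a41a, Cyp3a41b and Cyp3a13. A match is a string of letters and was not tested as a binding site.

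Cyp3a59 was almost absent from the estrous endometrium and present in each mated library. Its counts in estrus were 2, 0 and 1, or 0.119, 0.0 and 0.0758 CPM in CONT 1, 2 and 4. On day 3.5 pc after intact mating, INT 1 to 4 held 135, 126, 135 and 209 counts, which are 10.2, 7.94, 7.70 and 14.6 CPM. The 4 SVX libraries held 8.72, 15.8, 19.7 and 13.8 CPM. In SVX_VAS the levels were 18.2, 17.4, 16.4 and 14.6 CPM, the narrowest spread of the mated groups. The VAS libraries held 1.97, 8.49, 7.29 and 13.8 CPM, and VAS 1 with 35 counts was the lowest of all 16 mated libraries. The estrus and mated groups did not overlap, with 35 counts in the lowest mated library and 2 in the highest estrus library. Across the 17222 genes tested, 22.4% had all 16 mated libraries above all 3 estrus libraries. That share is background, as Cyp3a59 and Cyp3a25 were chosen for this difference.

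The 3 estrus counts of Cyp3a59 set how well its rise can be sized. Against the pooled estrus libraries the level was 192 times higher in INT (exact 95% counting interval 65.3 to 932), 281 times in SVX (95.8 to 1370), 325 times in SVX_VAS (111 to 1580) and 147 times in VAS (49.9 to 713), or 139 times without VAS 2 and VAS 3. These intervals cover counting error only. CONT 1 and CONT 2 decide the value: without CONT 1 the ratio for INT was 408 and without CONT 2 it was 99.4. The same 2 libraries moved the ratio to 598 or 146 in SVX, 692 or 169 in SVX_VAS and 312 or 76.0 in VAS.

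Cyp3a25, the close relative of Cyp3a59, had no count in any estrus library. The limit set by such a 0 is 3 counts, or 0.178, 0.108 and 0.227 CPM in CONT 1, 2 and 4. INT 1 to 4 held 23, 27, 17 and 47 counts (1.74, 1.70, 0.970 and 3.29 CPM). SVX held 2.18, 3.54, 3.73 and 2.58 CPM, and SVX_VAS held 4.40, 3.33, 2.90 and 2.80 CPM. The VAS libraries held 0.620, 2.15, 1.88 and 3.60 CPM, with VAS 1 again the lowest. Every mated library lay above the limit of every estrus library. The level was at least 11.2-fold higher than estrus in INT, 17.6-fold in SVX, 19.6-fold in SVX_VAS and 12.0-fold in VAS (12.3-fold without VAS 2 and VAS 3), each against 3 counts per estrus library.

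**Figure D1:**
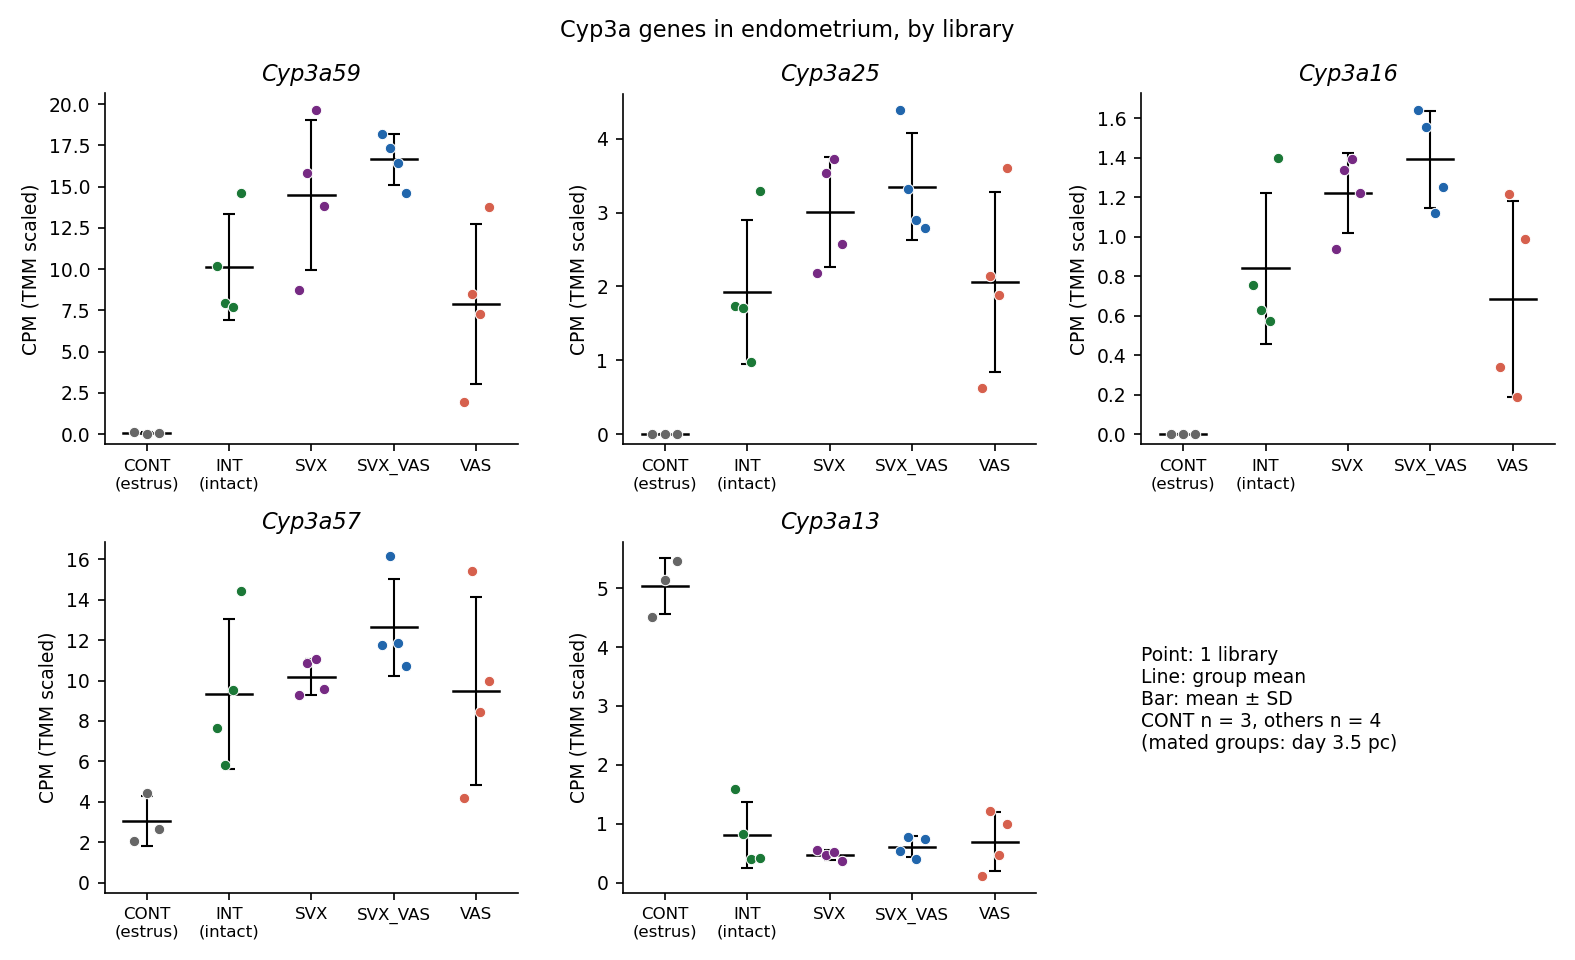
Each panel shows 1 gene, with the CPM of every library on the vertical axis (TMM scaled) and the 5 groups on the horizontal axis. Points are libraries, lines are group means and bars are SD (n = 3 for CONT and 4 for the others). Cyp3a59, Cyp3a25 and Cyp3a16 are at or near 0 in estrus and above it in all 16 mated libraries, Cyp3a57 is present in estrus and higher after mating, and Cyp3a13 is higher in estrus (4.52 to 5.46 CPM) than in any mated library (0.113 to 1.59 CPM).

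Cyp3a57 has the same kind of promoter, but it was already present in estrus and rose less. It is not a member of the list, and it serves here as the nearest relative with counts in every library. CONT 1, 2 and 4 held 2.08, 4.42 and 2.65 CPM. The means were 9.35 ± 3.71 CPM in INT (SD, n = 4), 10.2 ± 0.888 in SVX, 12.6 ± 2.39 in SVX_VAS and 9.49 ± 4.64 in VAS. Without VAS 2 and VAS 3 the VAS mean was 7.06 ± 4.09 CPM (n = 2). VAS 1 at 4.17 CPM lay below CONT 2, so VAS and estrus overlapped, while the other 3 mated groups did not overlap with estrus. Of all genes tested, 31% in INT, 35.2% in SVX, 33.5% in SVX_VAS and 26.7% in VAS lay above estrus without overlap. In edgeR's quasi-likelihood test with Benjamini-Hochberg adjustment, Cyp3a57 was higher than estrus with a logFC of 1.6 (SE 0.39, FDR 0.00282) in INT and 1.73 (FDR 0.00124) in SVX. The logFC was 2.04 (FDR 0.000423) in SVX_VAS and 1.62 (FDR 0.00206) in VAS, or 1.2 (FDR 0.0211) without VAS 2 and VAS 3, and over all alternatives its FDR in VAS lay between 8.9e-05 and 0.0382. A gene was called when the FDR was 0.05 or less and the change at least about 1.5-fold. Among the estrus libraries only CONT 2 reached 3 CPM, so Cyp3a57 needed the mated groups to pass the filter of 3 CPM in 3 libraries. Its entry into the fit thus rests on the same difference. With no filter on low counts the logFC was 1.57 (FDR 0.00424) in INT and 1.69 (FDR 0.00182) in SVX in the same edgeR test. It was 2.01 (FDR 0.000552) in SVX_VAS and 1.56 (FDR 0.00356) in VAS. The share of tested genes called higher was 20.9% in INT, 23.1% in SVX, 22.2% in SVX_VAS and 23.3% in VAS, so a rise by itself was common.

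Cyp3a16, a member whose promoter holds CATATAA, was detected at low counts in every mated library and in no estrus library. INT 1 to 4 held 10, 10, 10 and 20 counts, or 0.756, 0.630, 0.570 and 1.40 CPM. The SVX libraries held 12, 17, 19 and 17 counts (0.935 to 1.39 CPM), and the SVX_VAS libraries held 34, 28, 17 and 17 (1.12 to 1.64 CPM). VAS 1 to 4 held 6, 26, 4 and 14 counts, with VAS 3 at 0.188 CPM the lowest of the mated libraries. That value is below the 3-count limit of CONT 4. The level was at least 4.90-fold higher than estrus in INT, 7.13-fold in SVX, 8.13-fold in SVX_VAS and 3.98-fold in VAS, or 3.88-fold without VAS 2 and VAS 3. The gene did not reach 3 CPM in 3 libraries and so was left out of the fit. In an exact permutation test (two-sided, on log2(CPM + 0.1)) each mated group against estrus gave p = 0.0571, the smallest p that 3 against 4 libraries allow, and 0.1 after adjustment over the 7 comparisons of the gene. This test cannot reach 0.05 with 3 against 4 libraries. With no filter on low counts, edgeR's quasi-likelihood test (Benjamini-Hochberg) gave an FDR of 0.000138 in INT, 3.35e-05 in SVX, 3.01e-05 in SVX_VAS and 0.000182 in VAS against estrus.

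Cyp3a11, a major Cyp3a enzyme of mouse liver, was at the limit of detection in the endometrium. It had 1 count in SVX 1 and 0 in the other 18 libraries. A 0 in a library sets a limit of 0.108 to 0.236 CPM, depending on the library. Cyp3a44 had 1 count in each of INT 1, INT 4, SVX_VAS 1 and SVX_VAS 2, and Cyp3a63-ps had 2 counts in VAS 2. Whether these 3 differ between the groups was not detectable at this depth. Cyp3a41a and Cyp3a41b had no count in any library. Among the 9 genes of the cluster, 4 had 4 or more counts in every one of the 16 mated libraries, namely Cyp3a57 and Cyp3a16 at one end and Cyp3a25 and Cyp3a59 at the other. The 5 genes between them had at most 2 counts in a library. Cyp3a41a and Cyp3a41b are nearly identical, so their 0 may not bear on expression if reads with several matches were not counted. The 13 annotated genes inside the cluster without a Cyp3a symbol had at most 3 counts in any library, and 9 of them had none.

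**Figure D2:**
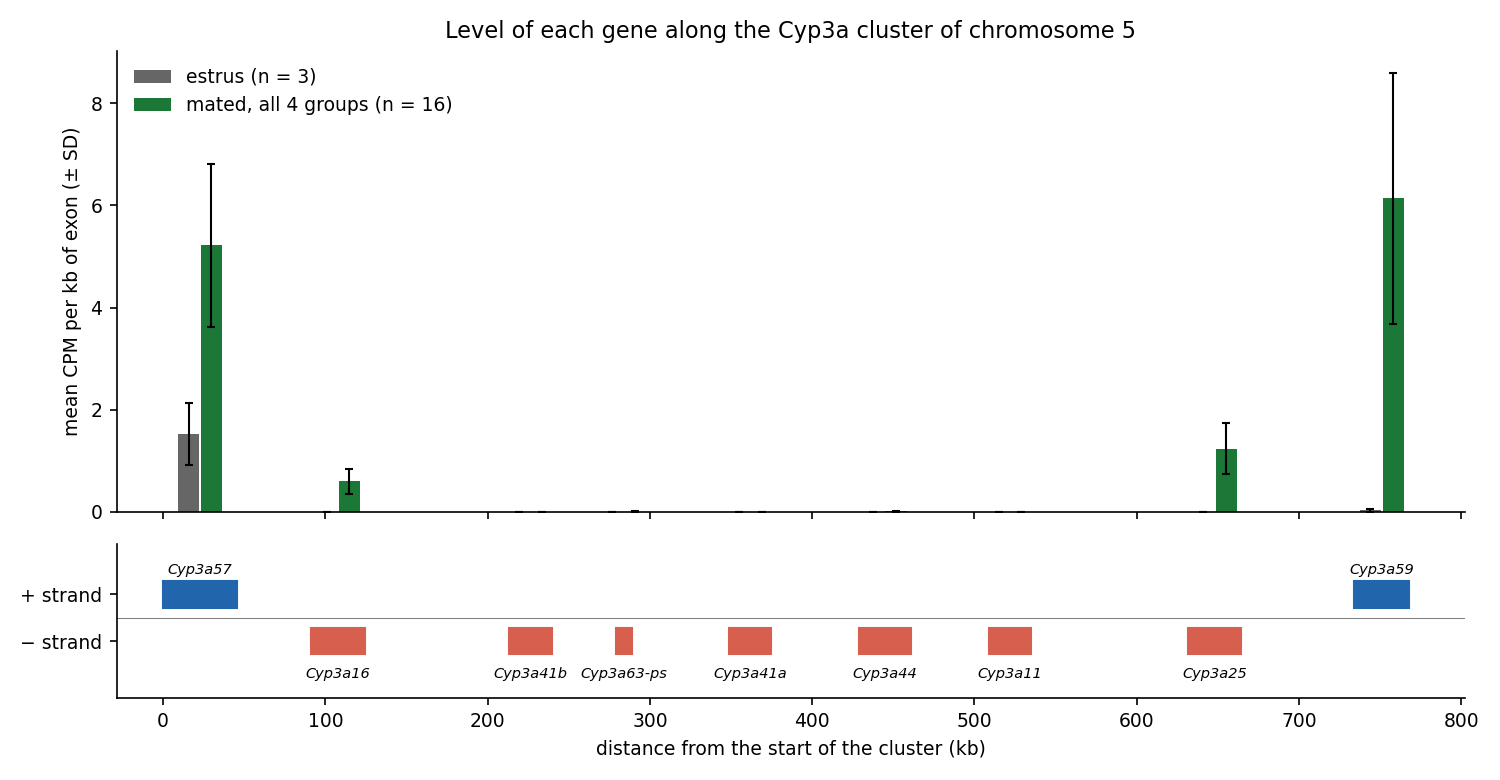
The upper panel plots the mean CPM per kb of exon (± SD) of each gene in the 3 estrus libraries (grey) and the 16 mated libraries (green) against its distance in kb from the start of the cluster, and the lower panel shows the span and strand of each gene. The bars rise at the ends of the cluster, with Cyp3a57 (5.22 ± 1.6) and Cyp3a16 (0.597 ± 0.249) on the left and Cyp3a25 (1.24 ± 0.504) and Cyp3a59 (6.14 ± 2.46) on the right in mated libraries, and are at or near 0 between them. The 0 of Cyp3a41a and Cyp3a41b, which are nearly identical, may not bear on their expression.

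Levels of different genes can be compared per kb of exon. In INT, Cyp3a59 was at 5.06 ± 1.61 CPM per kb (SD, n = 4) and Cyp3a57 at 4.69 ± 1.86, and the ranges of these neighbours in the order overlapped (3.85 to 7.31 and 2.91 to 7.23). Cyp3a25 followed at 0.924 ± 0.469 and Cyp3a16 at 0.485 ± 0.221 CPM per kb, and their ranges overlapped too. Cyp3a13 was the lowest of the detected genes at 0.273 ± 0.188 CPM per kb, with a range that overlapped with that of Cyp3a16. In estrus the order was different, since Cyp3a13 (1.70 ± 0.162 CPM per kb, n = 3) and Cyp3a57 (1.53 ± 0.610) held nearly all the signal and overlapped, and Cyp3a59 had 0.0324 ± 0.0301. In raw counts, Cyp3a13 made up 53.8% to 67.3% of the counts on the 10 genes in estrus. Its share was 1.23% to 7.22% in INT, where Cyp3a59 made up 40.2% to 47.0%.

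Reads of such close relatives can be assigned to the wrong gene, and the settings for reads that match several places were not given in the sources used here. Across their whole transcripts Cyp3a59 and Cyp3a25 had 96.5% identity, Cyp3a59 and Cyp3a57 92.6%, and Cyp3a59 and Cyp3a16 63.5%. Of all windows of 100 bases in the Cyp3a59 transcript, 5.61% occur unchanged in another gene, in each case Cyp3a25. For windows of 75 and 50 bases the share was 10.8% and 28%. The same shares for Cyp3a25 were 6.05%, 11.2% and 26.8%. Cyp3a16 shared 0.123% of its windows at 100 bases and 10.7% at 50 bases, and Cyp3a13 shared none at any of the 3 lengths. No window of the members occurred in a transcript outside the family, among 141767 transcripts scanned. Cyp3a41a and Cyp3a41b, with 99.7% identity, shared 90.8% and 88.2% of their windows at 100 bases, so a count of 0 for either may not bear on its expression if reads with several matches were not counted.

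**Figure D3:**
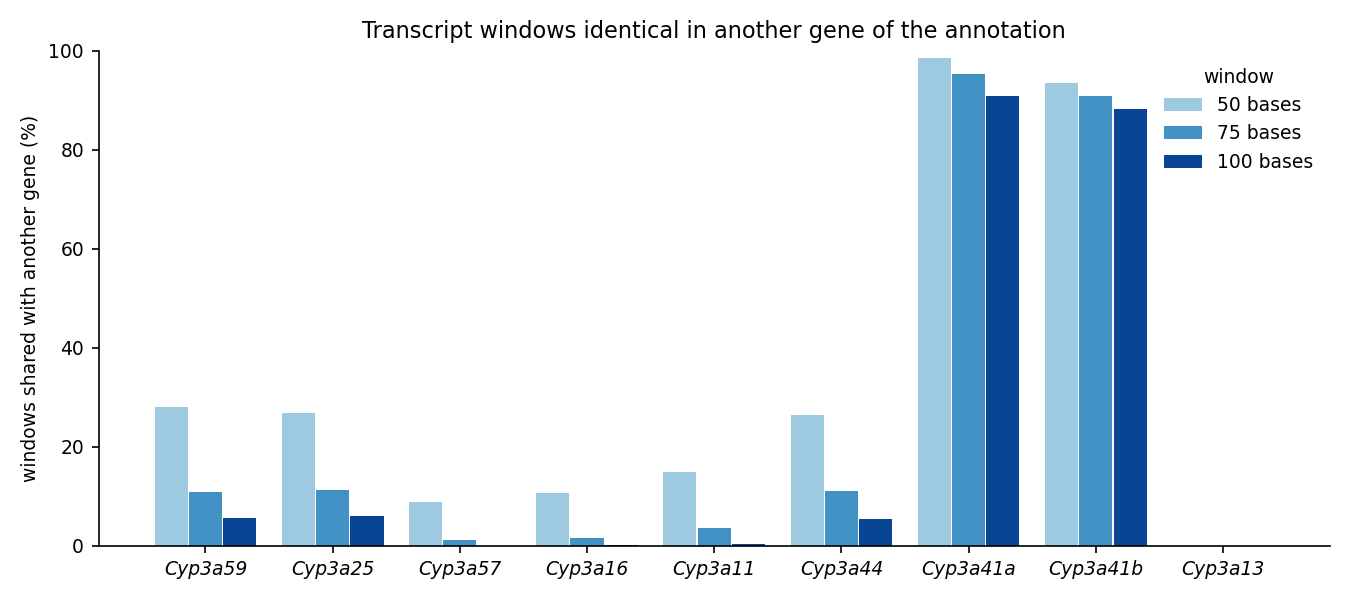
Bars give the percent of all windows of 50, 75 and 100 bases in the transcript of each gene that are identical in a transcript of another annotated gene. Cyp3a59 and Cyp3a25 share 5.61% and 6.05% of their 100-base windows, Cyp3a41a and Cyp3a41b share 90.8% and 88.2%, and Cyp3a13 shares none.

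Cyp3a13, the member outside the cluster, fell after mating. CONT 1, 2 and 4 held 76, 143 and 72 counts, or 4.52, 5.13 and 5.46 CPM. INT 1 to 4 held 21, 13, 7 and 6 counts (1.59, 0.819, 0.399 and 0.420 CPM). The SVX libraries held 5 to 7 counts each (0.358 to 0.545 CPM), and the SVX_VAS libraries 6 to 14 (0.396 to 0.776 CPM). In VAS the counts were 2, 26, 10 and 14, or 0.113, 1.21, 0.470 and 0.988 CPM. All 16 mated libraries lay below all 3 estrus libraries, as did 23.1% of the genes tested. With edgeR's quasi-likelihood test and Benjamini-Hochberg adjustment, its logFC was -2.65 in INT (SE 0.53, FDR 0.000720) and -3.4 in SVX (SE 0.56, FDR 9.11e-05). It was -3.03 in SVX_VAS (SE 0.54, FDR 0.000222) and -2.84 in VAS (SE 0.53, FDR 0.000319), or -3.23 (FDR 0.000719) without VAS 2 and VAS 3, and over all alternatives its FDR in VAS lay between 1.03e-06 and 0.019. Cyp3a13 passed the filter of 3 CPM in 3 libraries through the estrus group alone, so its entry into the fit rests on the same difference. With no filter on low counts the logFC was -2.67 (FDR 0.000773), -3.43 (FDR 8.67e-05), -3.05 (FDR 0.000226) and -2.91 (FDR 0.000285) in INT, SVX, SVX_VAS and VAS in the same edgeR test. Of all genes tested, 12.7% were called lower in INT, 18.5% in SVX, 16.5% in SVX_VAS and 17.3% in VAS. The 4 comparisons share the 3 estrus libraries. Most epithelial markers were lower after mating too. The summed CPM of 7 epithelial genes (Epcam, Cdh1, Krt8, Krt18, Krt19, Cldn3 and Cldn7) was 3370 to 4580 in estrus and 507 to 2390 in the mated libraries, and 5 of the 7 were called lower in INT and 6 in VAS, or 6 in INT and 3 in VAS without VAS 2 and VAS 3. Cldn3 was level, at 148 CPM in estrus and 150 in INT on average. Among mated libraries INT 1 had the highest Cyp3a13 (1.59 CPM) and the highest epithelial sum (2390). VAS 1 had the lowest Cyp3a13 (0.113 CPM) with a sum of 2080, and VAS 2 had 1.21 CPM with a sum of 611. The part of the epithelial markers in the fall of Cyp3a13 was not tested, and in bulk tissue fewer cells of a type and less RNA per cell cannot be told apart.

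The groups mated with modified males were next compared with the INT group, a comparison that did not choose the members. No member passed the test in any of the 3 groups, and Cyp3a11 was too low to be tested. The logFC of Cyp3a59 was 0.52 (95% interval -0.40 to 1.44) in SVX, 0.72 (-0.20 to 1.64) in SVX_VAS and -0.36 (-1.28 to 0.56) in VAS. In edgeR's quasi-likelihood test with Benjamini-Hochberg adjustment the FDR was 1.0, 1.0 and 0.650. The lowest SVX_VAS library and the highest INT library were both at 14.6 CPM. The intervals for SVX and SVX_VAS reach past a 1.5-fold rise and that for VAS past a 1.5-fold fall, so these values do not show that the groups are alike.

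Cyp3a25 gave a logFC of 0.65 (-0.30 to 1.6) in SVX, 0.81 (-0.14 to 1.75) in SVX_VAS and 0.10 (-0.86 to 1.05) in VAS. The last of these changed sign without INT 3 (-0.09) and without VAS 4 (-0.30). For Cyp3a13 the logFC was -0.75 (-1.92 to 0.42), -0.38 (-1.51 to 0.74) and -0.20 (-1.30 to 0.91). Its value for SVX_VAS became 0.16 without INT 1, and that for VAS became 0.34 without INT 1 and 0.16 without VAS 1. For Cyp3a16 an exact permutation test (two-sided) of 4 against 4 libraries gave p = 0.143 for SVX, 0.0857 for SVX_VAS and 0.457 for VAS against INT. Without VAS 2 and VAS 3 the exact permutation p of Cyp3a16 in VAS was 0.533. The logFC in VAS against INT was then -0.37 for Cyp3a59, 0.11 for Cyp3a25 and -0.59 for Cyp3a13. For Cyp3a57 the logFC lay between 0.02 and 0.44. With this test 0% of the 17222 genes were called in any of these 3 comparisons. At an unadjusted p under 0.05 there were 749 genes for SVX, 339 for SVX_VAS and 1831 for VAS. DESeq2 called 3, 2 and 0 genes and limma-voom 0, 0 and 1663. For VAS, edgeR called 578 genes without VAS 1 and 135 without VAS 4. Cyp3a59, Cyp3a25 and Cyp3a13 were called against INT with none of these tools, and the lowest FDR over all alternatives was 0.283, for Cyp3a59 in VAS without VAS 4.

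**Figure D4:**
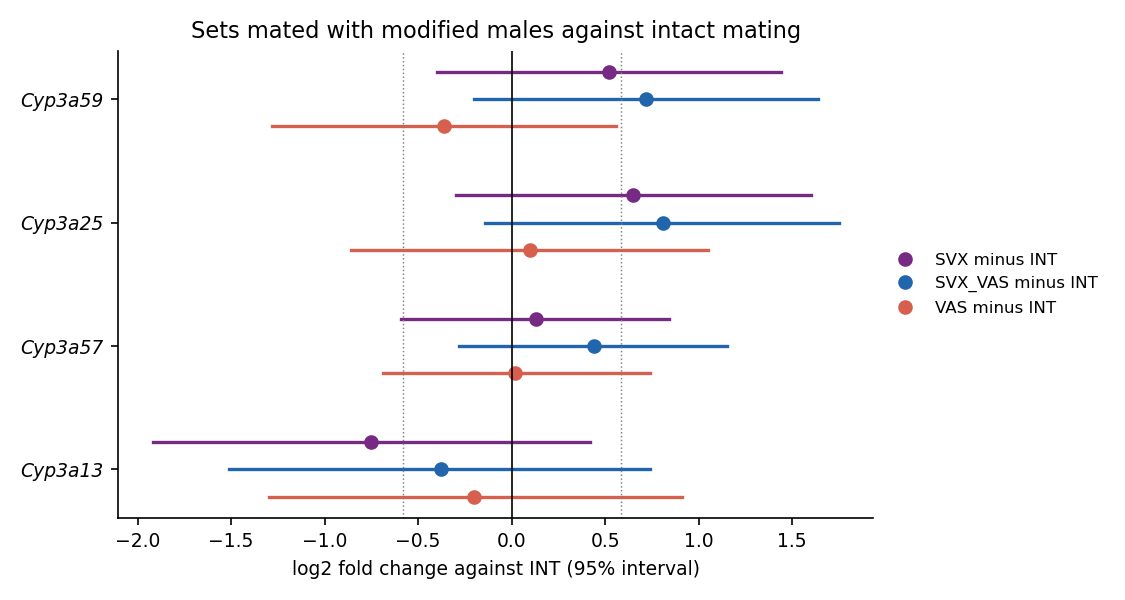
Points are the log2 fold changes of SVX, SVX_VAS and VAS against INT from the fit over all genes, lines are 95% intervals, and dotted lines mark the fold cutoff of 1.5 in either direction. All 12 intervals include 0, with Cyp3a25 in SVX_VAS (-0.14 to 1.75) the nearest to leaving it out.

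The ratio of Cyp3a25 to Cyp3a59 counts within a library does not depend on the scaling. Cyp3a59 had 4.45 to 7.94 counts for each Cyp3a25 count in INT and 4.0 to 5.36 in SVX. In SVX_VAS there were 4.14 to 5.66 and in VAS 3.18 to 3.96. The mean log2 ratio of Cyp3a25 to Cyp3a59 was -2.48 ± 0.382 in INT (SD, n = 4), -2.25 ± 0.202 in SVX, -2.33 ± 0.194 in SVX_VAS and -1.89 ± 0.145 in VAS. All 4 VAS libraries lay above all 4 INT libraries, a difference of 0.594. An exact permutation test (two-sided) gave p = 0.0286, the smallest that 4 against 4 allow, and 0.0857 after Benjamini-Hochberg adjustment over the 3 comparisons, which misses 0.05. Without VAS 2 and VAS 3 the difference was 0.68 (exact permutation p = 0.133, the smallest that 2 against 4 allow). For SVX and SVX_VAS the differences were 0.234 (p = 0.400) and 0.149 (p = 0.600) in the same exact test. How reads common to both genes were counted can shift this ratio in every library, and that was not tested.

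**Figure D5:**
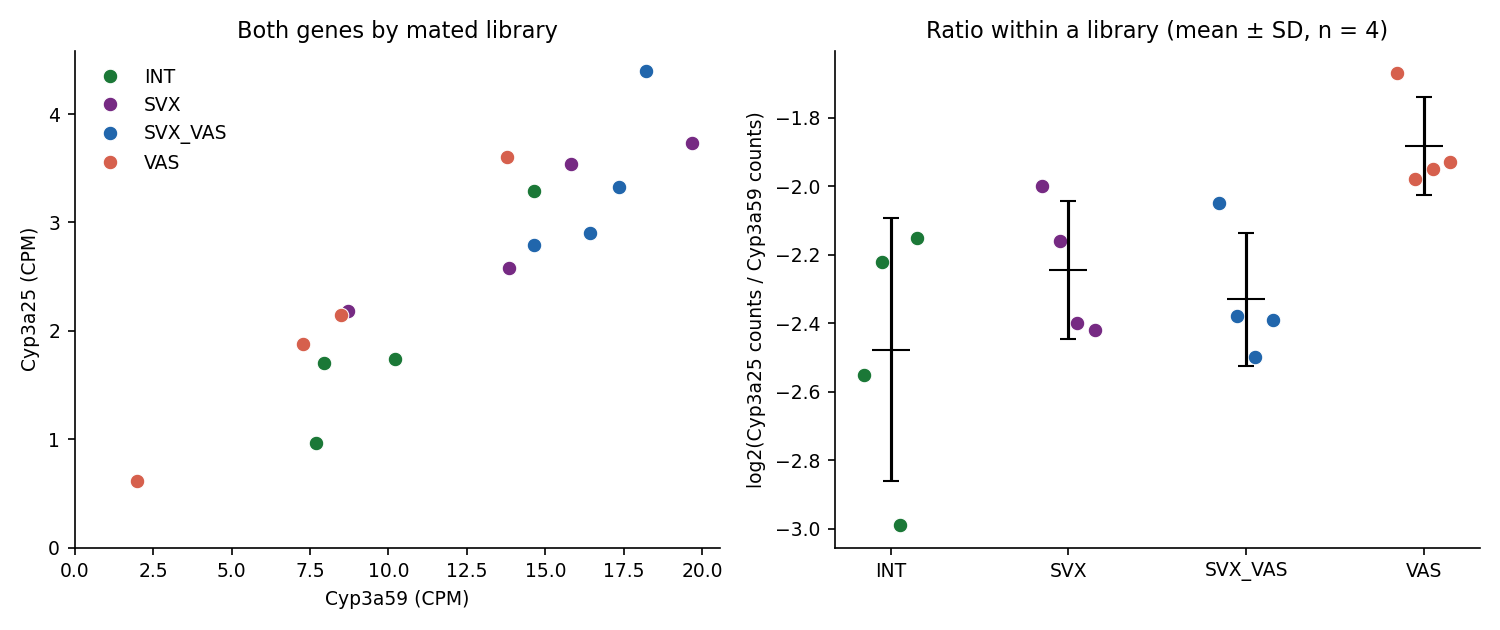
The left panel plots Cyp3a25 against Cyp3a59 in CPM for the 16 mated libraries, coloured by group, and the right panel the log2 ratio of their counts by group with mean ± SD (n = 4). Both genes move together from VAS 1 (1.97 and 0.620 CPM) to the highest libraries, and the VAS ratios (-1.98 to -1.67) lie above those of INT (-2.99 to -2.15).

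The level of Cyp3a59 was compared with that of 4 other Cyp3a genes across the 16 mated libraries. On log2 CPM, Cyp3a59 and Cyp3a25 gave Pearson's r = 0.920 and Spearman's rho = 0.882 (permutation p = 1e-05 and 2e-05, 100000 resamples, adjusted 4e-05 for both over 4 pairs). The 1e-05 is the smallest p the resamples can give. Without the libraries farthest from the median of Cyp3a59, VAS 1 and VAS 3, r was 0.878. Cyp3a59 and Cyp3a16 gave r = 0.784 and rho = 0.888 (permutation p = 0.00107 and 2e-05, adjusted 0.00193 and 4e-05), and r = 0.823 without those 2 libraries. For Cyp3a57, r was 0.766 and rho 0.706 (permutation p = 0.00145 and 0.00297, adjusted 0.00193 and 0.00396), but r fell to 0.485 without VAS 1 and VAS 3 and so rests in part on them. For Cyp3a13 r was 0.392 and rho 0.0676 (permutation p = 0.138 and 0.805), and r was -0.326 without VAS 1 and VAS 3. Without VAS 2 and VAS 3 the r values with Cyp3a25, Cyp3a16, Cyp3a57 and Cyp3a13 were 0.924, 0.927, 0.867 and 0.472. The libraries come from 4 groups with unlike means, and within a group of 4 no correlation was computed. Such values were not particular to the family. Outside it, r with Cyp3a59 reached 0.965 (Pla2g10). By rho, Aldh6a1 with 0.891 ranked only 25, and Syn2 with 0.835, above Cyp3a57, ranked 103. Cyp3a59 shared 24.7% of its 50-base windows with Cyp3a25, and the part of shared reads in their r was not tested.

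Outside the family, 5 genes followed Cyp3a59 most closely across the 16 mated libraries by Pearson's r on log2 CPM. They were Pla2g10 (a secreted phospholipase, r = 0.965), Sbspon (0.955), Aldh6a1 (a mitochondrial aldehyde dehydrogenase, 0.949), Far2os1 (0.948) and Syn2 (a synapsin, 0.948). Without VAS 1 and VAS 3, r was 0.847 to 0.916. Of the 5, 4 had means in estrus below every mated library, and 22.4% of all tested genes had every estrus library below every mated one. Pla2g10 was at 0.552 ± 0.25 CPM in estrus (SD, n = 3) and 6.37 to 47.6 CPM after mating, Far2os1 at 0.594 and 4.62 to 21.3, Syn2 at 2.74 and 25.2 to 93.3, and Sbspon at 13.1 and 33.3 to 148, whereas Aldh6a1 held 54.4 ± 8.61 CPM in estrus and 54.0 to 105 after mating. The order depends on the measure, since none of these 5 was among the first 5 by Spearman's rho and only Syn2 was among them without VAS 2 and VAS 3. For Cyp3a13 the first was Samhd1 (r = 0.800), and without INT 1 and VAS 1 its r was 0.529.

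Transcription factors known to act on Cyp3a genes in liver were called in both directions. Of 16 listed, 10 passed the filter, and in INT against estrus 3 were called higher and 1 lower, beside 20.9% and 12.7% of all tested genes, with a median logFC of 0.05 beside -0.01 over all tested genes. Foxa2, a factor of the uterine glands, rose by a logFC of 2.0 (FDR 0.000219 in edgeR's quasi-likelihood test, Benjamini-Hochberg), Ppara by 1.53 and Cebpa by 1.36, while Cebpb fell by 1.24. The same 4 genes were called in the same direction in SVX, SVX_VAS and VAS, which share the estrus libraries. Nr1i2, which encodes PXR, stayed below the filter with 0.357 to 0.531 CPM in estrus. It held 0.189 to 0.342 CPM in INT 1, 2 and 3 and 1.54 CPM in INT 4, so INT lay on both sides of estrus. The other mated libraries held 0.43 to 1.01 CPM of Nr1i2. Its means were 0.703 CPM in SVX, 0.719 in SVX_VAS and 0.76 in VAS, beside 0.451 in estrus. Nr1i3, which encodes CAR, held 27.2 to 29.5 CPM in estrus and 17.6 to 20.6 CPM in INT, and its logFC of -0.56 was not called (SE 1.03, FDR 0.700). Without VAS 2 and VAS 3 in the fit the logFC was -0.54 in INT (SE 0.1, FDR 0.000318), short of the fold cutoff, and Nr1i3 was called lower in SVX (-0.65) and SVX_VAS (-0.58). It was 16.6 to 22 CPM in the other mated libraries, apart from VAS 2 and VAS 3, where it had no count. Hnf4a, which liver needs for Cyp3a expression, had at most 8 counts in a library.

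A list of 6 genes was drawn up around electron transfer to P450 enzymes. In it, Por, the reductase that every microsomal P450 needs, fell from 226 CPM in estrus to 99.3 in INT on average (logFC -1.19, FDR 0.000106 in edgeR's quasi-likelihood test, Benjamini-Hochberg). Cyb5r3, a cytochrome b5 reductase, was called higher (logFC 0.71), and Cyb5a, Cyb5b, Pgrmc1 and Pgrmc2 were not called in INT. Of 13 other P450 genes of drug metabolism 6 passed the filter, with 2 called higher and 3 lower in INT. Cyp1b1, an estrogen-oxidizing P450, rose from 1.72 to 59.6 CPM (logFC 4.99), and Cyp2d22 rose by 1.12. Cyp2s1, Cyp2f2 and Cyp2j6 fell by 2.27, 2.13 and 1.26. Cyp4b1 was not called in INT (logFC 0.89, FDR 0.0712 in the same edgeR test) but was called higher there without VAS 2 and VAS 3. It was called higher in SVX, SVX_VAS and VAS, and in VAS this call was lost without those 2 libraries. Of 19 genes of conjugation and transport 16 were tested, with 8 called higher and 5 lower in INT. Among them Gstm1 (a glutathione transferase, logFC 2.71), Abcg2 (an efflux pump, 2.20) and Sult1a1 (a sulfotransferase, 2.12) rose, and Gsta3 (-1.74), Ugt1a6a (-1.73) and Ugt1a1 (-1.62) fell. No gene of these lists was called against INT in SVX, SVX_VAS or VAS by edgeR's quasi-likelihood test, which called none of the 17222 genes in these comparisons. In INT against estrus 20.9% of all tested genes were called higher and 12.7% lower. The median logFC of the 3 lists in INT against estrus was 0.00, -0.18 and 0.90.

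Most genes beside the cluster were not called higher after mating. In it or within 250 kb of it lie 35 genes without a Cyp3a symbol, of which 17 were tested. In INT against estrus none was called higher, against 20.9% of all tested genes, and 3 were lower, namely Arpc1a (logFC -0.62), Arpc1b (-0.97) and Zkscan14 (-0.65). B230303O12Rik, at an average of 2.58 CPM in estrus and 4.23 in INT, was not called in INT (logFC 0.71, FDR 0.109 in edgeR's quasi-likelihood test, Benjamini-Hochberg) and was called there without VAS 2 and VAS 3 in the fit (logFC 0.72, FDR 0.0419). It was called higher in SVX (logFC 0.91), SVX_VAS (0.97) and VAS (1.24), and Zkscan5 was called higher in SVX (0.63) and VAS (0.80). Without VAS 2 and VAS 3 neither was called in VAS (logFC 0.65 and 0.56), while their calls in SVX and SVX_VAS were the same. Beside 2, 1 and 2 genes higher, 5, 3 and 5 of the 17 were lower in SVX, SVX_VAS and VAS. Over all tested genes 23.1%, 22.2% and 23.3% were called higher and 18.5%, 16.5% and 17.3% lower. Without VAS 2 and VAS 3 the 5 lower genes in VAS were reduced to 2, Arpc1a and Arpc1b, and those in SVX to 4, with Zkscan14 lost. Around Cyp3a13 11 of 34 genes were tested, with none lower in INT and 2 higher, Nyap1 (logFC 1.54) and Zcwpw1 (0.75), beside 12.7% of all tested genes called lower and 20.9% called higher.

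Cells other than endometrium were looked for by markers of hepatocytes, enterocytes and the blastocyst. None of 10 hepatocyte markers passed the filter, their summed CPM was 1.06 to 2.26 in estrus and 1.58 to 5.92 in mated libraries, and albumin (Alb) had at most 2 counts in a library. Other members were higher, with up to 57 counts of Hpx (0.666 CPM in estrus and 1.81 to 3.05 in the mated groups on average) and up to 34 of Fga (0.0 CPM in estrus and 0.877 in SVX). Apoa2, with up to 27 counts, was lower after mating, at 0.803 CPM in estrus and 0.428 to 0.591 in the mated groups on average. The mated means of F2 (0.122 to 0.221 CPM) lay on both sides of its estrus mean of 0.164. Of 7 enterocyte markers 1 passed, Vil1, which was called higher in INT (logFC 0.68), with summed CPM of 2.85 to 3.84 in estrus and 3.94 to 6.35 after mating. Of 6 blastocyst markers 1 passed, Eomes, at 1.75 CPM in estrus and 5.39 in INT on average (logFC 1.61). The summed CPM of the 6 was 2.91 to 4.99 in estrus and 6.43 to 13.4 after mating, which did not overlap. Of single tested genes, 22.4% had all mated libraries above all estrus libraries. Cdx2, Pou5f1 and Nanog had at most 2 counts in a library, Elf5 was at 1.87 CPM in estrus and 1.51 in INT on average, and Tfap2c at 0.449 and 2.25. Markers of the endometrium were present in all libraries. Of the glandular markers 4 of 5 (Foxa2, Cxcl15, Prss28 and Spink1) were called higher in INT, with summed CPM of 4.64 to 16 in estrus and 61.3 to 524 after mating. Of the 4 progesterone-response genes in the counts (Ihh, Areg, Calca and Il13ra2) all were called higher in INT, from 6.18 to 12.3 summed CPM in estrus to 34.3 to 113 after mating. Of 6 stromal markers Vim, Pdgfra, Hoxa10 and Hoxa11 were called higher in INT and Dcn (logFC -0.10) and Col1a1 (-0.05) were not, and all 4 endothelial markers were called higher. These counts stand beside 20.9% of all tested genes called higher in INT. VAS 1, the lowest mated library for Cyp3a59 and Cyp3a25, was also the lowest for the summed glandular (61.3 CPM), progesterone-response (34.3) and endothelial (339) markers. It was also the lowest mated library for summed smooth muscle (257 CPM) and leukocyte markers (152, beside 153 in SVX_VAS 4). Its summed epithelial (2080 CPM) and stromal (4550 CPM) markers were exceeded among mated libraries by INT 1 alone (2390 and 4870). The part of all these markers in the levels of the Cyp3a genes was not tested.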

How the data were processed

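Endometrial RNA of 19 pooled samples was measured by RNA-seq. The authors prepared stranded total RNA libraries, sequenced them from both ends, trimmed adapters, aligned the reads with STAR to GRCm38/mm10 and counted them per gene with featureCounts, and the deposited values are these raw counts, which were not normalized. The strand setting, the handling of reads with several matches and the versions of STAR and featureCounts were not given in the sources used here. Symbols, positions and transcripts came from GENCODE M21, with 48349 of 49089 genes matched to a symbol. CPM used edgeR's TMM factors. The 17222 genes that reached 3 CPM in 3 or more libraries were tested with edgeR 4.0.16 (R 4.3.3), glmQLFit and glmQLFTest, all 19 libraries and 5 groups in 1 fit, no replicate block, Benjamini-Hochberg FDR over all tested genes, called at 0.05 or less and a change of about 1.5-fold or more. Cyp3a16 and the ratio of Cyp3a25 to Cyp3a59 were compared with exact permutation tests over libraries in Python 3.11.15 with scipy 1.17.1. Log2 CPM for correlations used a prior count of 2.

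The members and gene lists were chosen with earlier results of these data known. Named genes were the members, every other Cyp3a gene, genes within 250 kb of the cluster or of Cyp3a13, genes of the lists that were called or that define a cell type, and the 5 tested genes most like Cyp3a59 or Cyp3a13. The other Cyp3a13 likenesses and the lists of smooth muscle, leukocyte and estrogen-response genes are given in the closing section. Alternatives were DESeq2's size factors, DESeq2 1.42.0, limma-voom (limma 3.58.1), no filter, filterByExpr, only the 2 groups compared, a replicate block and each library of the groups compared left out. Leaving out VAS 2 and VAS 3 was chosen after seeing the data. Protein sequences were not analysed here.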

Additional observations from a re-analysis of the deposited data

Results flagged for a closer look

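The log2 ratio of Cyp3a25 to Cyp3a59 in VAS 1 was -1.67, while the other 3 VAS libraries lay between -1.98 and -1.93. Its gap to the nearest of them was 0.843 of the range of the group, above the critical value for 4 samples. VAS 1 had 11 counts of Cyp3a25 and 35 of Cyp3a59, the fewest of all mated libraries. Of 24 groups examined in this way 1.2 would be picked by chance.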

How the results depend on the processing

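Every call of Cyp3a13 and Cyp3a57 against estrus, and the absence of a call for Cyp3a59, Cyp3a25 and Cyp3a13 against INT, held under DESeq2's size factors, DESeq2, limma-voom, no filter, filterByExpr, only the 2 groups compared, each library of those 2 groups left out and leaving out VAS 2 and VAS 3. The adjusted p of Cyp3a13 in INT ranged from 8.55e-06 to 0.00344 over these. With CPM from library totals the ratio of Cyp3a59 over estrus in SVX_VAS was 373 and the bound for Cyp3a16 in SVX was 8.34. In VAS the same scaling gave 195 for Cyp3a59 and bounds of 16.2 for Cyp3a25 and 5.35 for Cyp3a16. The 2 scalings differ most in VAS 2 and VAS 3. There 3 counts were 0.140 and 0.141 CPM with TMM factors and 0.179 and 0.186 CPM with library totals. In CONT 1, 2 and 4 they were 0.178, 0.108 and 0.227 CPM with TMM factors and 0.150, 0.0944 and 0.194 with library totals. Why the factors of these libraries differ was not tested.

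When single libraries were left out, the ratio of Cyp3a59 to estrus ranged from 99.4 to 408 in INT, 146 to 598 in SVX, 169 to 692 in SVX_VAS and 76.0 to 312 in VAS. The bound of Cyp3a16 ranged from 3.81 to 5.87 in INT, 6.01 to 8.53 in SVX, 6.86 to 9.73 in SVX_VAS and 2.95 to 4.95 in VAS. That of Cyp3a25 ranged from 8.59 to 13.5 in INT, 14.8 to 21.0 in SVX, 16.5 to 23.5 in SVX_VAS and 9.05 to 14.9 in VAS. Against INT the logFC of Cyp3a25 in VAS ranged from -0.30 to 0.48 (-0.09 without INT 3), that of Cyp3a13 in SVX_VAS from -0.60 to 0.16 and in VAS from -0.64 to 0.34 (0.16 without VAS 1), and the log2 ratio of Cyp3a25 to Cyp3a59 in SVX_VAS from -0.02 to 0.26.

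Libraries with the same replicate number did not deviate together, with correlations as low as -0.688 and a median of 0.0469 over 36 pairs, so the numbers were not taken to pair the samples. With the replicate block Cyp3a13 against estrus was -2.53 in INT, -3.23 in SVX, -2.92 in SVX_VAS and -2.75 in VAS, and Cyp3a59 against INT was 0.52, 0.77 and -0.46. The block changed no call of a Cyp3a gene, and the number of genes called in INT against estrus went from 5791 to 5606.

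Depth limits Cyp3a11 and Cyp3a44, which were at 0 to 1 counts, and the size of the rise of Cyp3a59, Cyp3a25 and Cyp3a16, which rests on 3 or fewer counts in estrus.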

Other observations

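Estrogen-response genes (Ltf, Lcn2, C3, Muc1 and Clca1) varied widely among the mated libraries, with summed CPM of 185 to 9390 in INT, 191 to 558 in SVX, 232 to 10300 in SVX_VAS and 188 to 2580 in VAS, beside 10800 to 14300 in estrus. Against estrus Muc1 was called lower in INT and in SVX_VAS, all 5 in SVX, and Muc1 and C3 in VAS, where none was called without VAS 2 and VAS 3. Of all genes tested, 12.7% were called lower in INT, 18.5% in SVX, 16.5% in SVX_VAS and 17.3% in VAS. Of 4 leukocyte markers Ptprc, Cd3e and Adgre1 were called higher and Cd68 lower in INT, and of 5 smooth muscle markers 1, Des, was called higher, beside 20.9% of all tested genes called higher and 12.7% lower. After Samhd1, the genes most like Cyp3a13 across the 16 mated libraries were Jkamp (Pearson's r = 0.793), Gbp2 (0.786), Icam2 (0.781) and Gm37166 (0.778), which fell to 0.509 to 0.659 without INT 1 and VAS 1.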
